A study of Drosophila melanogaster with 24 samples.

Results

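Antennal lobe (AL) neuroblasts at 50 h of larval life were compared with mushroom body (MB) neuroblasts at 84 h of larval life, 2 groups in which the transcripts of the RNA-binding protein genes Imp and Syp stood near a 1 to 1 ratio. The groups were chosen by the measured CPM of Imp and Syp, so the levels of these 2 genes are a description, and the question is what else differed. The comparison uses 6 of the 24 libraries of the series, 3 per group, and every gene of the count table. Enough counts to be tested were found for 10324 of 15339 genes. The groups differ in lineage and in age together, and these 2 differences cannot be told apart in this comparison.

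The series profiled RNA of neuroblasts, the stem cells that build the brain of Drosophila melanogaster. Ages in hours of larval life were 24, 36, 50 and 84 for AL cells and 24, 50 and 84 for MB cells, which were also sampled 36 h into the pupa. Per the labels, larvae were age-matched to within 2 h and raised at 25 °C, about 30 brains were dissected and digested with enzymes, and GFP-positive cells were sorted and pooled. Both groups compared here went through these steps, with 106 to 121 cells per library in AL 50 h and 102 to 120 cells in MB 84 h, and carried spike-in RNA (ERCC mix 1). The labels give neither the driver of GFP nor the genotype of the animals. They do not say that the libraries of a group came from separate animals or sorts, so p-values measure only the spread between these libraries.

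Neuroblasts divide repeatedly by asymmetric division, each time renewing themselves and budding off a smaller cell whose progeny become neurons. The type of neuron made changes with time, and Imp and Syp, which act in opposite directions on transcripts such as chinmo, are known for setting that clock in MB and AL lineages. Ecdysone, the steroid hormone of moulting, acts on neuroblasts through its receptor EcR, and larval neuroblasts of different lineages keep distinct combinations of patterning transcription factors.

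Total gene counts were 7771032 to 8947555 per library in AL 50 h and 4674446 to 5019551 in MB 84 h. A count of 0 allows up to 3 counts, which correspond to 0.390 to 0.449 CPM in AL 50 h and 0.538 to 0.616 CPM in MB 84 h. Such limits and the counting intervals below hold no more than counting error, because the reads were amplified and carry no molecular identifiers. Genes with a count numbered 10677 to 11002 in AL 50 h and 11169 to 11520 in MB 84 h. Gene counts per spike-in count and 100 cells were 206 ± 18.8 and 215 ± 8.31 (SD, n = 3 each). Correlations of log2 levels across genes, which are not independent replicates, were 0.956 to 0.962 within AL 50 h, 0.955 to 0.958 within MB 84 h and 0.927 to 0.938 between them. Levels are given as CPM, the counts of a gene as parts of a common library size, on totals scaled by the TMM method, which discounts the few genes that dominate a library. In these bulk samples fewer cells of a type and less RNA per cell cannot be told apart.

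Imp stood at 21451, 16120.2 and 15411 CPM in AL 50 h libraries and 4439, 3506 and 4347 CPM in MB 84 h libraries. Syp stood at 15071, 15200.4 and 16843 CPM in AL 50 h libraries and 6508, 4558 and 6203 CPM in MB 84 h libraries. Both transcripts were thus at a higher level in every AL 50 h library than in any MB 84 h library. The means differed 4.31-fold for Imp and 2.73-fold for Syp. The ratio, by which the groups were chosen, differed less, by 1.58-fold. The ratio of Imp to Syp was 1.13 ± 0.262 in AL 50 h and 0.717 ± 0.0458 in MB 84 h on the CPM scale (SD, n = 3), with ranges of 0.915 to 1.42 and 0.682 to 0.769 that did not overlap. Per length, in TPM, the ratio was 0.942 ± 0.218 in AL 50 h and 0.597 ± 0.0381 in MB 84 h. The summed level of both transcripts was 33366 ± 2773 CPM in AL 50 h and 9854 ± 1562 CPM in MB 84 h. On the CPM scale the other groups lay far from a ratio of 1, the nearest being 5.77 ± 0.269 in AL at 36 h, 5.64 ± 0.368 in MB at 50 h and 0.0552 ± 0.00242 in pupal MB.

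**Figure D1:**
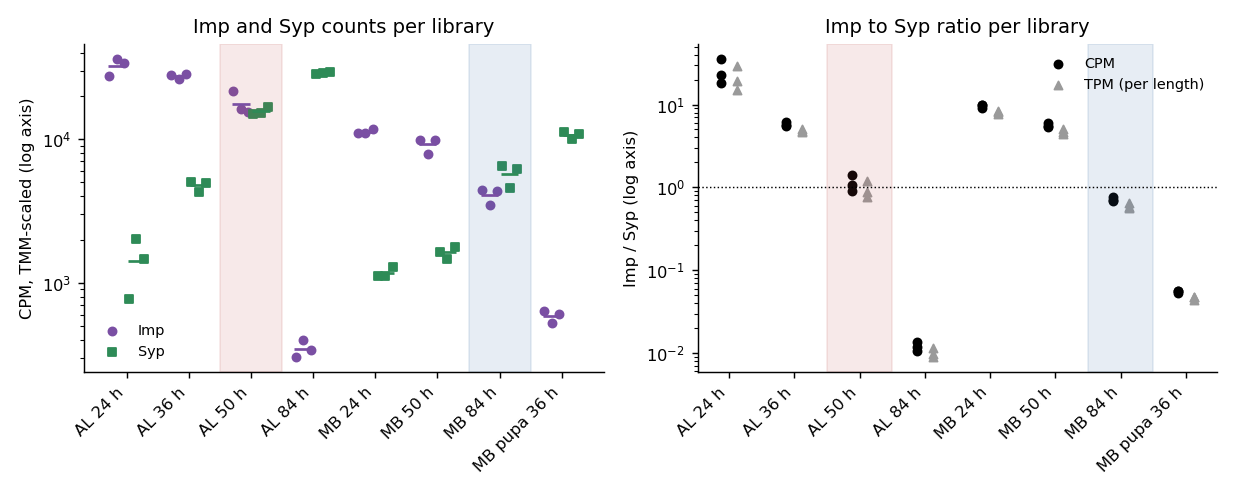
Left, CPM of Imp (circles) and Syp (squares) per library, on a log axis, with a line at each group mean. Right, the Imp to Syp ratio per library as CPM (circles) and TPM (triangles), on a log axis with a dotted line at 1. The shaded groups AL 50 h and MB 84 h lie nearest to 1, with CPM ratios of 0.915 to 1.42 and 0.682 to 0.769, and Imp and Syp are both at a higher level in AL 50 h.

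The labelled cell type was checked with 8 neuroblast markers, dpn, ase, wor, mira, insc, klu, grh and brat, whose summed level was 5849 to 6263 CPM in AL 50 h and 3191 to 4276 CPM in MB 84 h. The transcription factor genes dpn and wor, which mark neuroblasts, were at a mean of 629 CPM in AL 50 h and 490.5 CPM in MB 84 h for dpn and 753 CPM in AL 50 h and 619.9 CPM in MB 84 h for wor. Neither passed the test, and the 95% intervals of the log2 fold change, -0.02 to 0.74 for dpn and -0.03 to 0.59 for wor, hold the difference to less than 2-fold. Of the 8 markers 4, ase, klu, grh and brat, were called higher in AL 50 h and none lower, against 7.98% and 4.76% of all genes. Markers of neurons summed to 472 to 532 CPM in AL 50 h and 362 to 454 CPM in MB 84 h, with none of the 10 at 0 in either group. Ganglion mother cell and newborn neuron markers summed to 1925 to 2489.9 CPM in AL 50 h and 958 to 1582 CPM in MB 84 h, pros, which neuroblasts also transcribe, being among them. Glial markers summed to 473 to 515 CPM in AL 50 h and 321 to 392 CPM in MB 84 h. Haemocyte markers summed to 20.04 to 37.7 CPM in AL 50 h and 25.5 to 33.9 CPM in MB 84 h, and fat body markers to 5.21 to 16.2 CPM in AL 50 h and 12.98 to 17.0 CPM in MB 84 h. Tracheal markers summed to 19.8 to 56.1 CPM in AL 50 h and 58.9 to 133 CPM in MB 84 h, and 6 muscle markers to 14.2 to 35.8 CPM in AL 50 h and 31.4 to 83.4 CPM in MB 84 h. A wider list of 10 muscle genes, to which sls, the titin gene, contributed most in AL 50 h, summed to 170.2 to 201 CPM in AL 50 h and 82.9 to 142 CPM in MB 84 h, the opposite order. The sums of haemocyte, fat body, tracheal and muscle genes were below those of neurons and glia in every library. Among these defining markers nimC1 and verm had no count in AL 50 h, and Fbp2 and wupA had none in MB 84 h.

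Between AL 50 h and MB 84 h 1315 of 10324 genes (12.7%) were called different, meaning an adjusted p under 0.05 by the quasi-likelihood method of edgeR after Benjamini-Hochberg correction. Of these, 824 (7.98%) were higher in AL 50 h and 491 (4.76%) were lower, Imp and Syp being counted among the higher ones although their levels chose the groups. The fold exceeded 2 for 736 of them and 4 for 311, of which 140 were higher and 171 lower. Without regard to the test, all 3 libraries of AL 50 h lay above all 3 of MB 84 h for 1554 genes (15.1%) and below them for 1526 (14.8%). The 95% interval of the log2 fold change lay within 1 of 0 for 2629 genes (25.5%) and within 0.5 of 0 for 529 (5.12%), while 6642 genes were neither called nor bounded within 1. Among genes with at least 100 CPM in both groups, the smallest differences were in Scamp, ZAP3, fs(2)ltoPP43, RpL15, hyd and BthD. For hyd, which encodes a ubiquitin ligase, levels were 908, 944 and 873 CPM in AL 50 h and 948, 899.9 and 874 CPM in MB 84 h, an interval of -0.20 to 0.20. With libraries scaled by spike-in RNA and cell number instead of TMM, the median log2 fold change of all genes moved to -0.44, against -0.03, and the split became 165 higher and 589 lower. Medians of gene lists under that scaling, given below, stand against this -0.44. With limma on log2(TPM + 1) it was 522 higher and 806 lower.

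**Figure D2:**
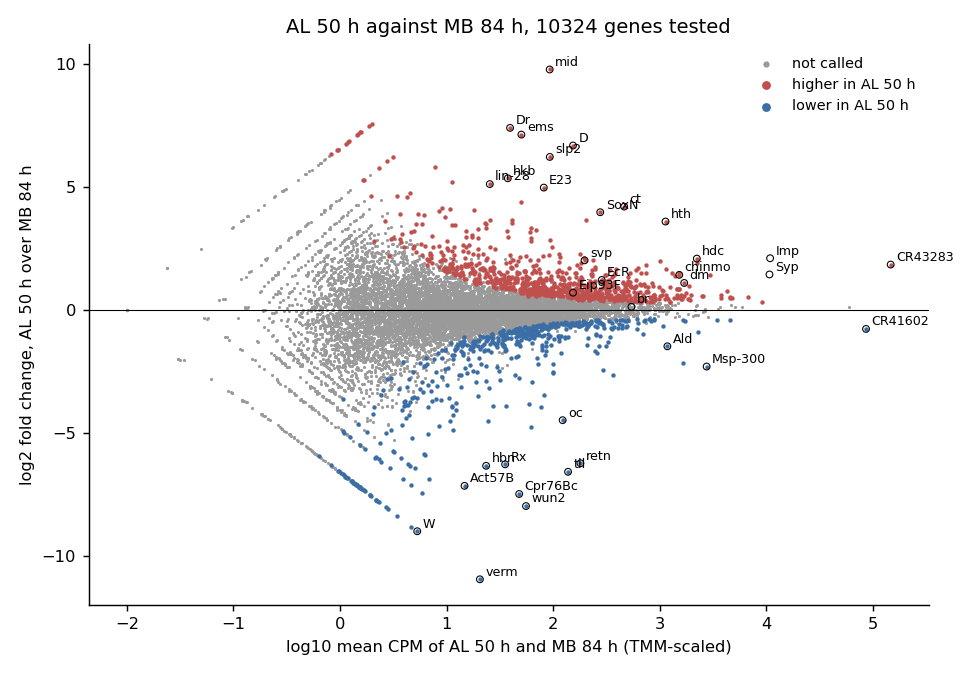
Log2 fold change of AL 50 h over MB 84 h (vertical axis) against the log10 mean CPM of both groups (horizontal axis) for the 10324 genes tested. Genes called higher are red, the 491 called lower blue and those not called grey. Circles mark named genes. Imp and Syp, which chose the groups and count among the 824 called higher, are left uncoloured. Patterning genes such as mid, Dr, ems and D lie at the top and verm, W, wun2 and Cpr76Bc at the bottom, with tll, Rx, hbn and retn close above them.

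Calls moved with the genomic span of a gene, taken from the dm3 start and end in the deposited table. Over 2437 genes with a summed level above 100 CPM, cut by span into 5 classes of like size, 52.3% of the class of longest genes (median 17.96 kb) were called higher in AL 50 h and 3.69% lower. In the class of shortest genes (median 1.39 kb) 6.76% were called higher and 16.6% lower. With a smooth trend on span removed from each library, a setting chosen after seeing the data, 19.5% of the longest genes were called higher and 14.8% lower. Of the shortest genes 14.3% were then called higher and 6.76% lower. In all, 577 genes were then higher and 512 lower, and 872 of the 1315 genes remained called. The part of RNA quality or of priming along a transcript in this was not tested.

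**Figure D3:**
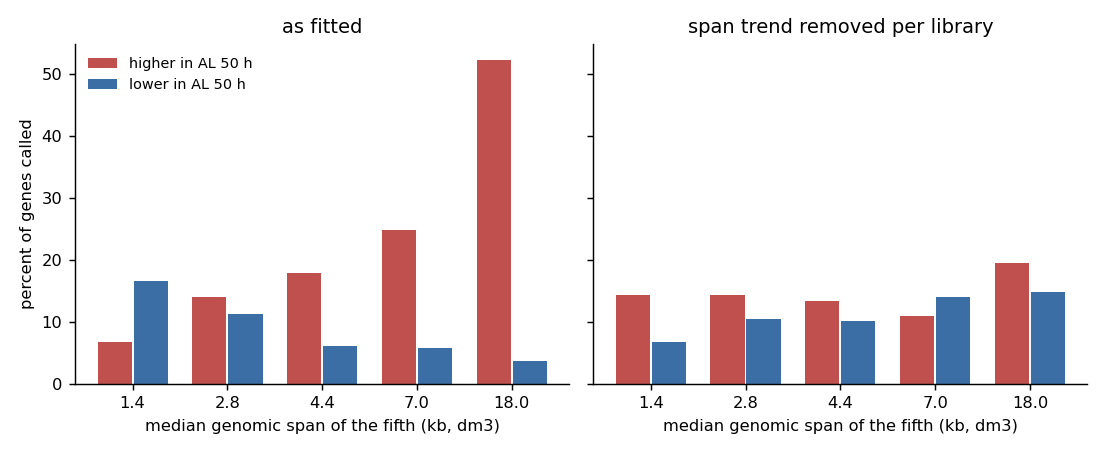
Percent of genes called higher (red) and lower (blue) in AL 50 h than in MB 84 h, by class of genomic span in dm3 (horizontal axis, median span in kb), as fitted (left) and with a trend on span removed from each library (right). As fitted, calls among the longest genes were 52.3% higher and 3.69% lower; with the trend removed they were 19.5% and 14.8%.

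The temporal factors are genes known to change in neuroblasts or their progeny with time. Besides Imp and Syp, 16 of them were tested, of which 6 were higher in AL 50 h, 1 was lower and 9 were not called, with a median log2 fold change of 0.42, against -0.03 over all genes and 12.7% of all genes called. The counts were 4 higher and 2 lower under spike-in scaling and 6 higher and 2 lower with the span trend removed. The list's medians there were 0.03 and -0.04, against -0.44 and -0.03 over all genes. Without AL 50 h replicate 3 the median was 0.10 and without MB 84 h replicate 2 it was 0.26. The gene lists were chosen with earlier results of these data known, so their counts are descriptions, and some list members are named beyond the naming rule after their values were seen. chinmo, a zinc finger gene whose protein specifies early-born neurons and a known downstream gene of Imp and Syp, had 2571, 2183 and 1932 CPM in AL 50 h and 931, 561 and 986 CPM in MB 84 h. The groups did not overlap, and the log2 fold change was 1.43 ± 0.23 (SE), a 2.70-fold higher level (adjusted p = 0.00019). With the span trend removed its log2 value was 0.82. lin-28, an RNA-binding protein gene, had 61.7, 65.1 and 21.6 CPM in AL 50 h and 1.85, 1.08 and 1.32 CPM in MB 84 h. lin-28 was 34.8-fold higher in AL 50 h (log2 5.12 ± 0.72, adjusted p = 7.5e-05). All 3 AL 50 h libraries exceeded the MB 84 h ones, which was a condition of the ranking given below. AL 50 h replicate 3 was well below the others of its group. Outside the compared groups, chinmo averaged 608 ± 187 CPM in AL at 84 h and 1932 ± 417 CPM in MB at 50 h. lin-28 averaged 1.36 ± 0.530 CPM in AL at 84 h and 134 ± 14.3 CPM in MB at 50 h, so that the means of both genes were higher at 50 h than at 84 h in either lineage.

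The hormone-induced transcription factor genes br and Eip93F, both linked to the late neuroblast programme, did not pass the test. br had 537, 566 and 601 CPM in AL 50 h and 619, 403 and 529 CPM in MB 84 h. The ranges overlapped, and the log2 fold change was 0.14 ± 0.18 with a 95% interval of -0.23 to 0.50, so that a 2-fold difference lies outside it. Eip93F had 145, 176 and 251 CPM in AL 50 h and 109, 83.8 and 158 CPM in MB 84 h, also with overlap. Its log2 fold change was 0.71 ± 0.31 with an interval of 0.05 to 1.37 (adjusted p = 0.16). Eip93F was called higher when no filter on low counts was used or only these 6 libraries were fitted (adjusted p = 0.00023 and 0.035). With the span trend removed its value was 0.07. For br the means of the 2 groups were above those of MB at 50 h (84.8 ± 31.3 CPM) and AL at 24 h (74.1 ± 2.45 CPM). Eip93F, by contrast, was at 1029 ± 302 CPM in AL at 84 h and 4.86 ± 0.909 CPM in MB at 50 h, on either side of the compared groups.

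svp, a nuclear receptor gene with a role as a switch in neuroblast timing, had 384, 322 and 244 CPM in AL 50 h and 77.8, 56.0 and 100.1 CPM in MB 84 h. svp was 4.06-fold higher in AL 50 h (log2 2.02 ± 0.26, adjusted p = 8.9e-06). EcR, the ecdysone receptor gene, had 471, 344 and 387 CPM in AL 50 h and 185, 126 and 203 CPM in MB 84 h. EcR was 2.34-fold higher in AL 50 h (log2 1.22 ± 0.20, adjusted p = 2.8e-05). Its log2 value was 0.54 with the span trend removed, and the call was not made under spike-in scaling (0.84, adjusted p = 0.067). grh, a neuroblast-maintaining factor gene, was higher (963 CPM in AL 50 h and 585 CPM in MB 84 h) by a log2 value of 0.72 ± 0.12 (adjusted p = 1.5e-05). Under spike-in scaling grh was not called (0.32, adjusted p = 0.53). D, the Sox factor gene Dichaete, stood far apart with 230.1, 386 and 297 CPM in AL 50 h and 4.31, 2.87 and 1.69 CPM in MB 84 h. D was 103-fold higher in AL 50 h (log2 6.69 ± 0.49, adjusted p = 1.2e-08). In MB it was low at each age, averaging 4.21 ± 1.40, 7.03 ± 0.892 and 2.96 ± 1.31 CPM in MB at 24, 50 and 84 h, against 128 ± 41.3 CPM or more in every AL group. Between the groups there was no overlap of libraries for svp and EcR, while for D this was a condition of the ranking given below. Kr, a gap gene encoding a zinc finger factor, was the lower member, at 2.72, 0.749 and 1.30 CPM in AL 50 h and 32.0, 5.02 and 21.1 CPM in MB 84 h. Its log2 fold change was -3.58 ± 0.91 (adjusted p = 0.013), and it was no longer called without replicate 2 or 3 of AL 50 h or replicate 1 of MB 84 h (-3.26, -3.45 and -3.01). The embryonic series genes hb, nub and pdm2 were not called, though pdm2 was without a filter on low counts or under spike-in scaling (adjusted p = 0.049 in both). cas, at 14.2 ± 7.40 CPM in AL 50 h and 37.3 ± 16.4 CPM in MB 84 h, was not called either (adjusted p = 0.16), except without a filter on low counts or with these 6 libraries alone (adjusted p = 5.7e-09 and 0.023). dan (-0.45 ± 0.19), danr (-0.27 ± 0.37) and mamo (1.04 ± 0.96), other nuclear factor genes with timed expression, were not called, though dan was with the span trend removed (-0.71, adjusted p = 0.0063).

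**Figure D4:**
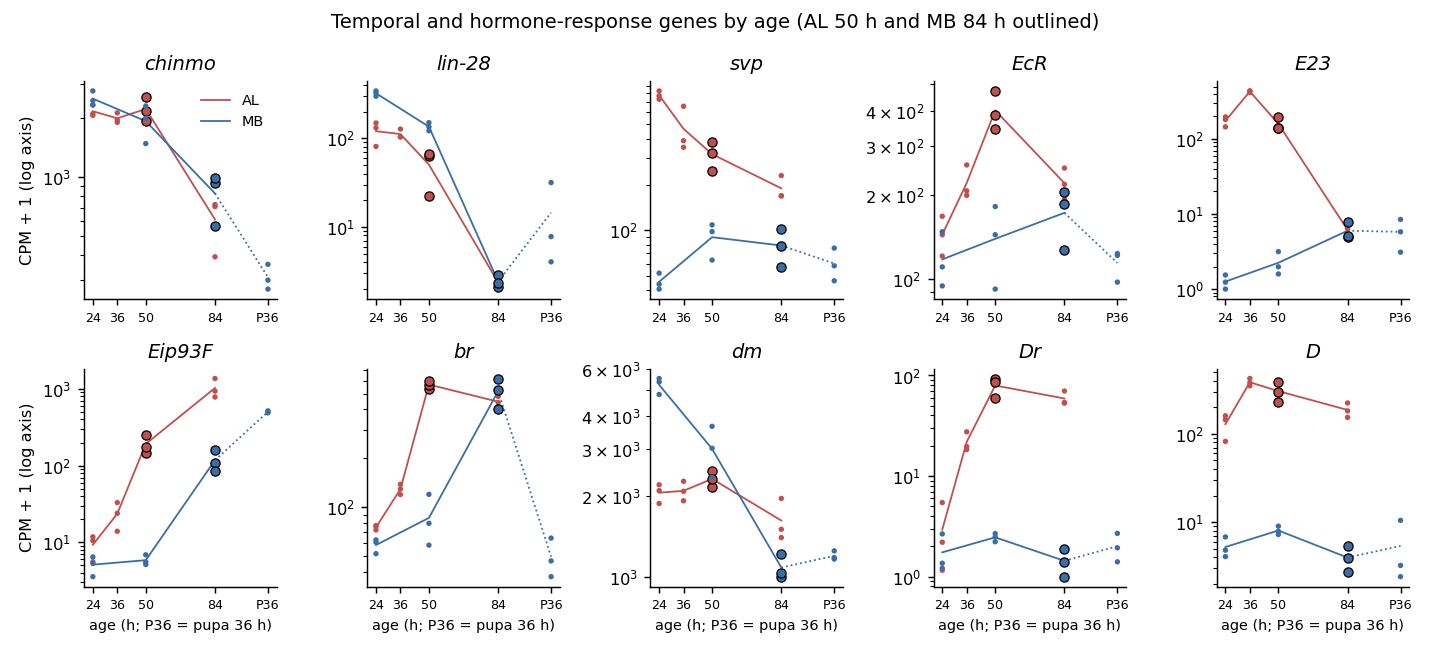
CPM + 1 on log axes against age in AL (red) and MB (blue) for 10 genes, with each library as a point, lines through the group means and outlined points for AL 50 h and MB 84 h; the dotted line leads to MB at 36 h in the pupa (P36). The outlined points overlap for br and Eip93F and lie apart for chinmo, lin-28, svp, EcR, E23, dm, Dr and D.

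Of 7 genes reported as targets or downstream genes of Imp or Syp, 3 were higher, chinmo, pros and dm, and 4, mamo, br, Eip93F and chic, were not called (7.98% of all genes were higher and 4.76% lower). dm, the fly Myc gene that drives growth, had 2477, 2154 and 2327 CPM in AL 50 h and 1209.8, 997 and 1032 CPM in MB 84 h. dm was 2.15-fold higher in AL 50 h (log2 1.10 ± 0.12, adjusted p = 5.9e-09). pros, whose protein turns off self-renewal in the daughter cell, was 1.80-fold higher, at 1969 ± 237 CPM in AL 50 h and 1091 ± 269.9 CPM in MB 84 h (adjusted p = 6.9e-06). For dm and pros the libraries of the 2 groups did not overlap. Both calls were lost under spike-in scaling, with log2 values of 0.70 and 0.46 (adjusted p = 0.11 and 0.33). chic, the profilin gene, had 2714, 2733 and 2665 CPM in AL 50 h and 2859, 2233 and 2714 CPM in MB 84 h. The log2 fold change of chic was 0.06 ± 0.09 with an interval of -0.13 to 0.25, which holds the difference to less than 1.5-fold.

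Transcription factor genes of the MB lineage had the lowest median of the 31 lists. Of its 6 members 5 were lower in AL 50 h (4.76% of all genes were called lower) and none was higher, with a median log2 fold change of -4.44. tll, a nuclear receptor gene needed to keep MB neuroblasts dividing (chromosome 3R, 26678037 to 26680095 in dm3), had 3.01, 2.54 and 2.99 CPM in AL 50 h and 296, 237 and 287 CPM in MB 84 h. tll was 95.1-fold lower in AL 50 h (log2 -6.57 ± 0.27, adjusted p = 5.1e-22). Rx, a homeobox gene of the MB progenitors, had 0.573, 1.05 and 1.04 CPM in AL 50 h and 71.4, 56.2 and 82.6 CPM in MB 84 h. Rx was 77.0-fold lower in AL 50 h (log2 -6.27 ± 0.39, adjusted p = 2e-16). The homeobox gene hbn had 0.549 CPM in AL 50 h and 46.5 CPM in MB 84 h (log2 -6.33 ± 0.59). The Pax6 genes were also lower, toy at 12.1 CPM in AL 50 h and 74.7 CPM in MB 84 h (log2 -2.62 ± 0.38) and ey at 45.2 CPM in AL 50 h and 92.1 CPM in MB 84 h (log2 -1.03 ± 0.21). In these 5 genes every AL 50 h library lay below every MB 84 h library, which for tll, Rx and hbn was a condition of the ranking given below. The sixth member, dac, was not called at 12.8 ± 5.05 CPM in AL 50 h and 8.73 ± 4.45 CPM in MB 84 h (0.55 ± 0.60). retn, an ARID-domain factor gene outside this list (chromosome 2R, 19520135 to 19542343 in dm3), had 6.01, 4.34 and 3.90 CPM in AL 50 h and 373, 333 and 362 CPM in MB 84 h. retn was 74.7-fold lower in AL 50 h (log2 -6.22 ± 0.26, adjusted p = 7.4e-18).

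Of 8 tested transcription factor genes used in AL lineages, 2 were higher, 2 were lower and 4 were not called (7.98% of all genes were higher and 4.76% lower). The median was 0.11, with -0.30 under spike-in scaling and -0.26 with the span trend removed. Less the median of all genes in the same setting, these values were 0.14, 0.15 and -0.23. With 1 library left out the list's median lay at -0.26 to 0.46. ems, a homeobox gene that acts in AL lineages (chromosome 3R, 9727581 to 9730346 in dm3), had 80.9, 109.7 and 109.6 CPM in AL 50 h and 0.205, 1.79 and 0 CPM in MB 84 h. ems was 140.3-fold higher in AL 50 h (log2 7.13 ± 0.48, adjusted p = 1.3e-13). ct, the homeobox gene cut (chromosome X, 7526255 to 7542183 in dm3), had 1006, 821 and 819 CPM in AL 50 h and 43.5, 40.4 and 59.4 CPM in MB 84 h. ct was 18.4-fold higher in AL 50 h (log2 4.21 ± 0.30, adjusted p = 1e-08). The AL list was thus split, since the homeobox genes oc and vnd were lower in AL 50 h. oc averaged 10.5 ± 6.51 CPM in AL 50 h and 235 ± 26.6 CPM in MB 84 h (-4.47 ± 0.38, adjusted p = 5.9e-08). vnd had 0.286, 0 and 0 CPM in AL 50 h and 17.0, 8.25 and 15.2 CPM in MB 84 h (adjusted p = 4.4e-06). With 2 counts in all in AL 50 h, its ratio of MB 84 h to AL 50 h was 142 with a 95% counting interval of 38.9 to 1182. acj6 (0.70 ± 0.85), Lim1 (1.04 ± 1.13), vvl (-0.48 ± 0.30) and tup (-0.58 ± 0.67) were not called, though Lim1 was without MB 84 h replicate 1 (4.52, adjusted p = 0.036). No library of either group fell within the range of the other for oc, while for ems, ct and vnd this was a condition of the rankings given below.

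The wider list of head gap and homeobox patterning genes was called at 16 of 20 members, 7 higher and 9 lower (7.98% of all genes were higher and 4.76% lower), with a median of -1.09 that was -1.70 without AL 50 h replicate 1. Scaled by spike-in RNA and cell number, the list had 5 higher and 9 lower and a median of -1.52, and with the span trend removed 7 higher and 9 lower and a median of -1.17. All genes had medians of -0.44 and -0.03 in these settings. Dr, the homeobox gene of the msh class (chromosome 3R, 25382109 to 25391007 in dm3), had 58.4, 92.2 and 84.7 CPM in AL 50 h and 0.411, 0.897 and 0 CPM in MB 84 h. Dr was 169-fold higher in AL 50 h (log2 7.40 ± 0.72, adjusted p = 1.2e-09). slp2, a forkhead factor gene, had 202, 163 and 186 CPM in AL 50 h and 4.31, 1.08 and 2.07 CPM in MB 84 h. slp2 was 74.8-fold higher in AL 50 h (log2 6.22 ± 0.51, adjusted p = 1.6e-08). Its neighbour slp1 was also higher, at 47.1 ± 8.37 CPM in AL 50 h and 3.75 ± 3.22 CPM in MB 84 h. hth, whose protein partners with Hox proteins, had 2061, 1853 and 2375 CPM in AL 50 h and 183, 134 and 202 CPM in MB 84 h. hth was 12.1-fold higher in AL 50 h (log2 3.60 ± 0.23, adjusted p = 5e-10). The ranges of the 3 libraries of each group did not overlap for hth, while for Dr and slp2 this was a condition of the ranking given below. The LIM homeobox gene ap was lower at 4.45 ± 2.95 CPM in AL 50 h and 119 ± 14.9 CPM in MB 84 h, and the gene of the LIM homeobox factor Lim3 had no count in AL 50 h.

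**Figure D5:**
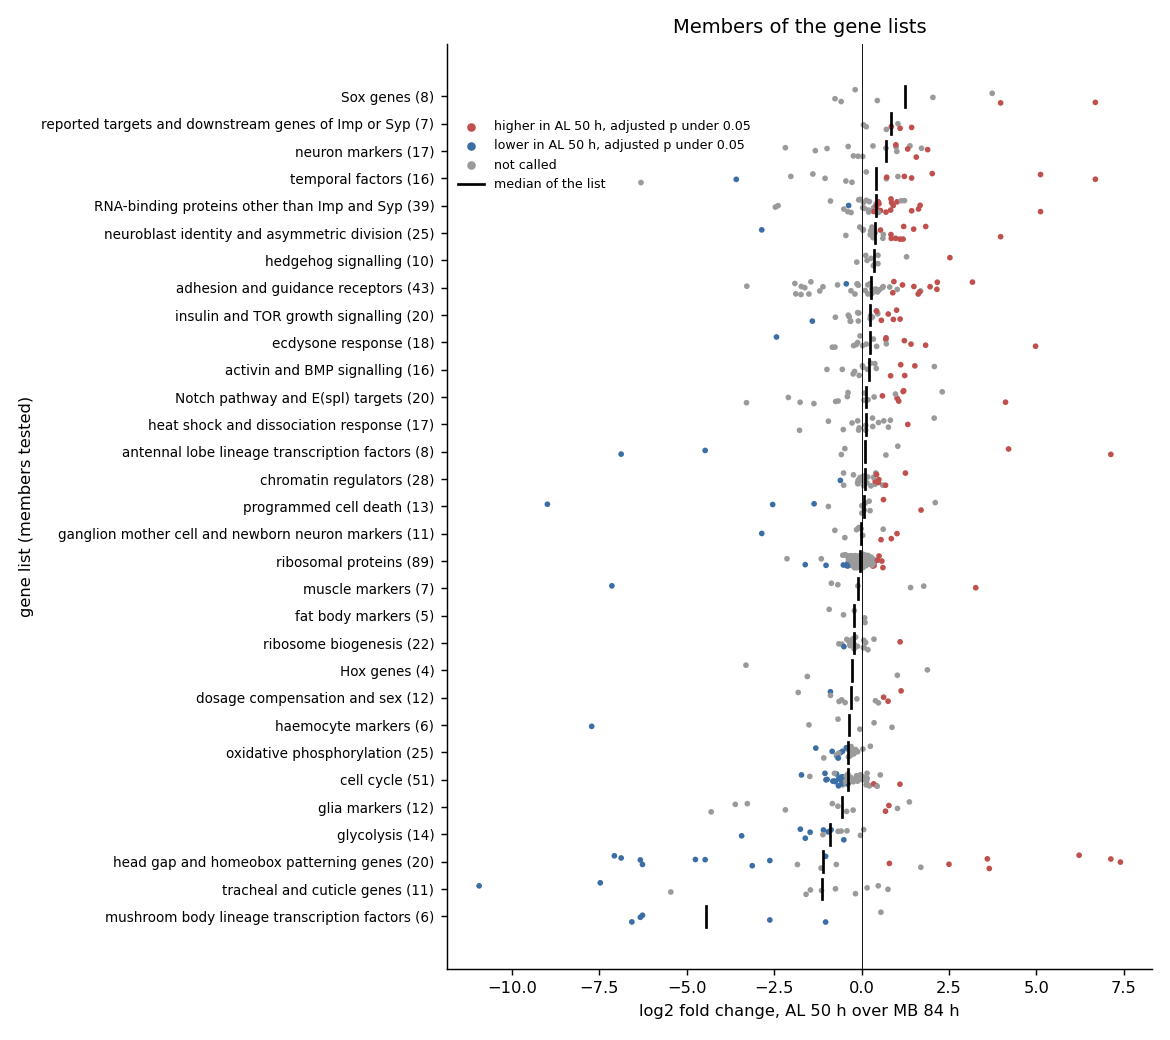
Log2 fold change of AL 50 h over MB 84 h (horizontal axis) for the tested members of each gene list (rows, with the number tested), red for members called higher, blue for members called lower and grey for those not called; a bar marks the list's median, and Imp and Syp are left out. The MB lineage list has the lowest median at -4.44, and the glycolysis and cell cycle lists lie to the left at -0.91 and -0.39.

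The 12 highest log2 fold changes among called genes of at least 10 CPM belonged to mid, Dr, ems, D, slp2, hkb, CG30419, lin-28, E23, CG42324, ct and CG18130. mid, a T-box factor gene (chromosome 2L, 5461641 to 5466829 in dm3), had 171, 219 and 167 CPM in AL 50 h and 0.205, 0.359 and 0 CPM in MB 84 h, with 3936 counts in AL 50 h and 3 in MB 84 h. That is a ratio of 969 with a counting interval of 331 to 4699 (adjusted p = 4.5e-23), and mid was near 0 in every MB group. hkb, a gap gene encoding a zinc finger factor, had 67.2, 66.3 and 86.7 CPM in AL 50 h and 1.03, 1.26 and 3.01 CPM in MB 84 h. hkb was 41.0-fold higher in AL 50 h (log2 5.36 ± 0.59, adjusted p = 2e-08). E23, an ecdysone-induced ABC transporter gene, had 140.2, 197 and 139 CPM in AL 50 h and 3.90, 4.13 and 6.96 CPM in MB 84 h. E23 was 31.5-fold higher in AL 50 h (log2 4.98 ± 0.29, adjusted p = 1e-16). Within AL its mean was 174 ± 26.7 CPM at 24 h, 429 ± 11.4 CPM at 36 h and 5.14 ± 0.809 CPM at 84 h. CG42324 had 94.6 ± 14.8 CPM in AL 50 h and 4.58 ± 3.69 CPM in MB 84 h, and 3.70 ± 2.98 CPM in AL at 84 h. CG30419 (21.8 CPM in AL 50 h and 0.547 CPM in MB 84 h) and CG18130 (17.2 CPM in AL 50 h and 0.940 CPM in MB 84 h) complete the set, with log2 values of 5.22 ± 0.71 and 4.16 ± 1.07. The lack of overlap of libraries was a condition of this ranking, so it is no finding for these 12 genes, also where they are named elsewhere. Without MB 84 h replicate 2 the fitted values of mid, Dr, ems and CG30419 moved to 10.61, 8.5, 9.72 and 7.53. Without MB 84 h replicate 3 that of CG18130 was 5.80 and that of hkb 5.96, and without MB 84 h replicate 1 that of slp2 was 6.86.

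The 12 lowest under the same conditions were verm, W, wun2, Cpr76Bc, ato, Act57B, vnd, tll, CG31233, hbn, Rx and retn. verm, a chitin deacetylase gene of trachea and cuticle, had no count in AL 50 h and 59.7, 24.8 and 38.7 CPM in MB 84 h. With a floor of 3 counts per library it was at least 97.1-fold lower in AL 50 h (adjusted p = 3.1e-07). verm was called among the 5 tracheal markers summed above, and trh, btl, serp and Gasp were not. trh, which sets tracheal fate, had 10.6 CPM in AL 50 h and 6.27 CPM in MB 84 h, and btl, an FGF receptor gene of tracheal cells, 2.87 CPM in AL 50 h and 3.23 CPM in MB 84 h. serp, another chitin deacetylase gene, had 2.98 CPM in AL 50 h and 8.99 CPM in MB 84 h, and Gasp, which encodes a chitin-binding protein, 18.8 CPM in AL 50 h and 41.6 CPM in MB 84 h. The libraries of the groups overlapped for each of these 4, and their sum without verm was 19.8 to 56.1 CPM in AL 50 h and 34.1 to 73.5 CPM in MB 84 h. The part of tracheal cells in the verm difference was not tested. Cpr76Bc, a cuticle protein gene, had 1.43, 0 and 0.130 CPM in AL 50 h and 133, 75.2 and 78.8 CPM in MB 84 h. Cpr76Bc was 178-fold lower in AL 50 h (log2 -7.47 ± 0.72, adjusted p = 6.6e-08), with a log2 value of -10.05 without AL 50 h replicate 1. In MB it was at 37.0 ± 15.1 CPM at 50 h and 115 ± 19.97 CPM in the pupa. wun2, a lipid phosphate phosphatase gene, had 0.716, 0.449 and 0.130 CPM in AL 50 h and 108, 119 and 105 CPM in MB 84 h. wun2 was 249.6-fold lower in AL 50 h (log2 -7.96 ± 0.57, adjusted p = 1.9e-12). In MB the mean of wun2 was 13.5 ± 5.21 CPM at 24 h, 61.2 ± 8.09 CPM at 50 h and 124 ± 21.5 CPM in the pupa, and in AL it did not exceed a mean of 11.9 CPM. W, also called hid, a cell death gene, had no count in AL 50 h and 15.8, 3.41 and 12.6 CPM in MB 84 h, at least 25.1-fold lower (adjusted p = 7.7e-05). Act57B, a muscle actin gene, had 0.143, 0.150 and 0.260 CPM in AL 50 h and 49.1, 18.3 and 20.5 CPM in MB 84 h (adjusted p = 4.6e-08), while wupA, another gene of muscle, had no count in MB 84 h. The proneural gene ato (0.0499 CPM in AL 50 h and 11.7 CPM in MB 84 h) and CG31233 (0.0998 CPM in AL 50 h and 10.0 CPM in MB 84 h) had 1 and 2 counts in all in AL 50 h. This gives ratios of MB 84 h to AL 50 h of 249 (44.2 to 9897) and 104 (28.4 to 869) with counting intervals. For these 12 genes too, the lack of overlap between the libraries of the 2 groups was a condition of the ranking and is no finding.

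Libraries outside the compared pair were used to set these genes beside lineage at an equal age and beside age within AL. In AL 24 h against MB 24 h, 1120 genes (10.8%) were called, 490 higher (4.75%) and 630 lower (6.1%). Of the 824 genes higher in AL 50 h, 189 (22.9%) were also higher in AL at 24 h, which is 38.6% of the 24 h list, and 85 (10.3%) were lower there. Of the 491 genes lower in AL 50 h, 139 (28.3%) were also lower in AL at 24 h, which is 22.1% of the 24 h list, and 12 (2.44%) were higher there. Both same-direction shares exceed the 4.75% and 6.1% of all genes called so at 24 h. Of the opposite shares, 10.3% also exceeds the 6.1% of all genes called lower at 24 h, while 2.44% lies below the 4.75% called higher. Of the 12 genes at the top, 8 were called in the same direction at 24 h (mid, ems, D, slp2, hkb, E23, CG42324 and ct), and of the 12 at the bottom also 8 (W, wun2, ato, Act57B, tll, hbn, Rx and retn). In AL 84 h against AL 24 h, 1277 genes (12.4%) were called, 585 higher at 84 h (5.67%) and 692 lower (6.7%). Of the genes higher in AL 50 h than in MB 84 h, 244 (29.6%) were lower in the older AL neuroblasts, 35.3% of that list, and 53 (6.43%) were higher. Of the genes lower in AL 50 h, 117 (23.8%) were higher in the older AL neuroblasts, 20% of that list, and 24 (4.89%) were lower. In neither of these comparisons were 660 of the 1315 genes (50.2%) called. The comparison of ages within AL also moved with gene span. Its median log2 fold change was 0.17 in the class of shortest genes and -0.26 in that of longest genes. Between AL 50 h and MB 84 h these medians were -0.18 and 0.51. With the span trend removed, 337 of 1089 called genes were also called in AL 84 h over AL 24 h, against 438 of 1315 as fitted. The part of span in this overlap was not tested.

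Values at a shared age, from fits that use libraries of the compared pair, are set side by side only for some of the named genes. For tll the log2 fold change of AL over MB was -6.71 at 50 h and -5.98 at 84 h, beside -6.57 in the compared pair. For D it was 5.44 and 5.98, beside 6.69. For lin-28 it was -1.44 and -0.08, beside 5.12, and for chinmo 0.21 and -0.44, beside 1.43. For dm it was -0.37 and 0.58, beside 1.10. The values of lin-28 and chinmo lay at 0.21 or below when the ages were equal. Those of D and tll had the same sign as in the compared pair and exceeded 5 in size. The parts of lineage and age in these values were not tested. For Eip93F the values were 5.28 at 50 h and 3.14 at 84 h, beside 0.71, and for br 2.74 and -0.22, beside 0.14.

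Of 25 genes of neuroblast identity and asymmetric division, 10 were higher, 1 was lower and 14 were not called, with a median of 0.39 (7.98% of all genes were higher and 4.76% lower). Under spike-in scaling the list had 3 higher and 1 lower (median -0.0024), and with the span trend removed 9 higher and 2 lower (median 0.33). The median of all genes under spike-in scaling was -0.44. ase, a proneural factor gene of neuroblasts, had 332, 225 and 221 CPM in AL 50 h and 55.2, 68.2 and 94.4 CPM in MB 84 h. ase was 3.57-fold higher in AL 50 h (log2 1.84 ± 0.20, adjusted p = 1.2e-08). klu, a zinc finger gene of neuroblasts, had 1243, 1089 and 992 CPM in AL 50 h and 384, 314 and 484 CPM in MB 84 h. klu was 2.81-fold higher in AL 50 h (log2 1.49 ± 0.15, adjusted p = 1.2e-09). SoxN, a SoxB factor gene, had 532, 536 and 493 CPM in AL 50 h and 42.7, 16.5 and 40.1 CPM in MB 84 h. SoxN was 15.8-fold higher in AL 50 h (log2 3.98 ± 0.23, adjusted p = 2.3e-14). In MB at 50 h it averaged 2.04 ± 1.21 CPM. The adaptor gene numb, an inhibitor of Notch segregated at division, was higher by 1.19 ± 0.14 (696 CPM in AL 50 h and 305 CPM in MB 84 h) and the polarity kinase gene aPKC by 0.98 ± 0.17. No library of either group fell within the range of the other for ase, klu, SoxN and numb. The translational repressor gene brat was higher by 0.54 ± 0.11, a call lost under spike-in scaling (0.14) and with the span trend removed (0.12), and that of aPKC was lost under spike-in scaling (0.58). mira (0.39 ± 0.15) and insc (0.33 ± 0.18), which encode the cargo adaptor and the spindle adaptor of asymmetric division, were not called, though mira was without AL 50 h replicate 2 (0.51, adjusted p = 0.03). nerfin-1, which keeps neurons differentiated, was the lower member at 12.6, 2.99 and 7.55 CPM in AL 50 h and 52.1, 37.9 and 78.0 CPM in MB 84 h. nerfin-1 was 7.23-fold lower in AL 50 h (log2 -2.85 ± 0.69, adjusted p = 0.0078).

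Of 20 genes of the Notch pathway and its E(spl) targets, 6 were higher and none was lower, with a median of 0.14 (7.98% of all genes were higher and 4.76% lower). The counts were 1 higher and none lower under spike-in scaling and 4 higher and none lower with the span trend removed, with medians of -0.26 and 0.24. Less that of all genes, the list's median was 0.17 as fitted and 0.18 under spike-in scaling. With 1 library left out the median lay at 0.05 to 0.36. The receptor gene N had 898, 855 and 769.6 CPM in AL 50 h and 373, 367 and 354 CPM in MB 84 h. N was 2.31-fold higher in AL 50 h (log2 1.21 ± 0.13, adjusted p = 8.1e-10). The ligand gene Dl was higher by 1.02 ± 0.16 (419 CPM in AL 50 h and 207 CPM in MB 84 h) and kuz, the protease gene that cleaves Notch, by 1.06 ± 0.17 (414 CPM in AL 50 h and 198 CPM in MB 84 h). The calls of N, Dl, kuz and numb were lost under spike-in scaling, with log2 values of 0.79, 0.62, 0.67 and 0.78. The call of kuz, which spans 88.1 kb, was also lost with the span trend removed (0.17, adjusted p = 0.54). Among the target genes, E(spl)m3-HLH was higher at 20.3 ± 4.92 CPM in AL 50 h and 1.15 ± 0.862 CPM in MB 84 h, and E(spl)mgamma-HLH, a target active in neuroblasts, was not called at 260.4 ± 80.4 CPM in AL 50 h and 229 ± 52.5 CPM in MB 84 h.

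Of 18 ecdysone response genes, 6 were higher, 1 was lower and 11 were not called, with a median of 0.24 (7.98% of all genes were higher and 4.76% lower). Scaled by spike-in RNA and cell number, the list had 3 higher and 1 lower and a median of -0.16, and with the span trend removed 4 higher and 1 lower and a median of 0.03. Less that of all genes, the list's median was 0.27 as fitted and 0.28 under spike-in scaling. With 1 library left out the median lay at 0.17 to 0.44. tai, a coactivator gene of the receptor, had 1220.4, 1219 and 1020.3 CPM in AL 50 h and 380.0, 247 and 345 CPM in MB 84 h. tai was 3.56-fold higher in AL 50 h (log2 1.83 ± 0.15, adjusted p = 1.2e-11), or 1.00 with the span trend removed. Eip75B, an early response nuclear receptor gene, had 417, 484 and 431 CPM in AL 50 h and 194, 114 and 192 CPM in MB 84 h. Eip75B was 2.67-fold higher in AL 50 h (log2 1.41 ± 0.24, adjusted p = 0.00021). The ranges of the 3 libraries of each group did not overlap for tai and Eip75B. The nuclear receptor gene ftz-f1 was higher by 0.69 ± 0.14, a call lost under spike-in scaling (0.30) and with the span trend removed (0.28), and usp, which encodes the partner of EcR, was not called (0.34 ± 0.32). ImpL2, which encodes a secreted binder of insulin-like peptides, was the lower member at 91.3 ± 18.9 CPM in AL 50 h and 493 ± 27.3 CPM in MB 84 h (-2.43 ± 0.47, adjusted p = 0.0019).

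Of 16 activin and BMP genes, 4 were higher and none was lower, with a median of 0.21 (7.98% of all genes were higher and 4.76% lower). Under spike-in scaling the list had 1 higher and none lower (median -0.20), and with the span trend removed 4 higher and none lower (median 0.11). Less that of all genes, the list's median was 0.25 both as fitted and under spike-in scaling. With 1 library left out the median lay at 0.11 to 0.35. babo, the activin receptor gene known to act on the Imp to Syp switch in MB, had 247, 219 and 245 CPM in AL 50 h and 164, 111 and 124 CPM in MB 84 h. babo was 1.78-fold higher in AL 50 h (log2 0.83 ± 0.16, adjusted p = 0.00012). The BMP receptor gene tkv was higher by 1.53 ± 0.22 (197 CPM in AL 50 h and 68.5 CPM in MB 84 h), the transducer gene Mad by 1.12 ± 0.24 and the nuclear factor gene shn by 1.23 ± 0.18. Under spike-in scaling babo, Mad and shn lost their calls, with log2 values of 0.44, 0.72 and 0.85. Of 10 hedgehog genes the ligand gene hh alone was called (10%, against 12.7% of all genes). Its levels were 28.8, 17.1 and 5.34 CPM in AL 50 h and 1.44, 4.13 and 3.20 CPM in MB 84 h. hh was 5.76-fold higher in AL 50 h (log2 2.53 ± 0.64, adjusted p = 0.0066). This call was lost with limma on TPM (1.83) and without AL 50 h replicate 1 (1.90, adjusted p = 0.067). Of 20 insulin and TOR genes, 6 were higher and 1 was lower, with a median of 0.25 (7.98% of all genes were higher and 4.76% lower). The counts were none higher and 1 lower under spike-in scaling and 2 higher and 2 lower with the span trend removed, with medians of -0.14 and -0.01. Over all genes the medians were -0.44 and -0.03. With 1 library left out the insulin median was 0.13 to 0.32. InR, the insulin receptor gene, had 1054, 744 and 1051 CPM in AL 50 h and 511, 611 and 555 CPM in MB 84 h. InR was 1.7-fold higher in AL 50 h (log2 0.76 ± 0.14, adjusted p = 8.9e-05). Pdk1, a kinase gene of the pathway, was higher by 0.91 ± 0.14 (375 CPM in AL 50 h and 199.7 CPM in MB 84 h). Both lost their calls under spike-in scaling (0.36 and 0.51), and InR also with the span trend removed (0.27).

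Glycolysis genes were lower in AL 50 h: of 14 tested, 8 were called lower (4.76% of all genes were) and none higher, with a median of -0.91. Ald, the aldolase gene, had 545, 745 and 589 CPM in AL 50 h and 1824, 1626 and 1761 CPM in MB 84 h. Ald was 2.77-fold lower in AL 50 h (log2 -1.47 ± 0.14, adjusted p = 7.6e-11). Pglym78, a phosphoglycerate mutase gene, had 122, 119 and 112 CPM in AL 50 h and 435, 338 and 418 CPM in MB 84 h. Pglym78 was 3.36-fold lower in AL 50 h (log2 -1.75 ± 0.16, adjusted p = 5.2e-11). Pgi (38.9 CPM in AL 50 h and 119 CPM in MB 84 h) and Gapdh1 (218 CPM in AL 50 h and 463 CPM in MB 84 h) were lower, with log2 fold changes of -1.61 ± 0.26 and -1.09 ± 0.14. Between the groups there was no overlap of libraries for Ald, Pglym78, Pgi and Gapdh1. ImpL3, the lactate dehydrogenase gene, had the lowest log2 value of the list, at 13.9 ± 5.59 CPM in AL 50 h and 149 ± 21.6 CPM in MB 84 h (-3.43 ± 0.66, adjusted p = 0.0017). PyK, the pyruvate kinase gene, and Gapdh2 were not called, with log2 intervals of -0.24 to 0.36 and -0.31 to 0.24. The median was -1.33 under spike-in scaling and -0.82 with the span trend removed, with 9 and 8 genes called lower. Over all genes it was -0.44 and -0.03.

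Of 25 genes of oxidative phosphorylation 7 were lower and none higher (7.98% of all genes were higher and 4.76% lower), with a median of -0.37 that was -0.08 with the span trend removed, where 6 were lower and 1 higher. ATPsyn-gamma, a subunit gene of the ATP synthase, had 40.2, 51.8 and 56.999 CPM in AL 50 h and 153, 99.6 and 117 CPM in MB 84 h. ATPsyn-gamma was 2.48-fold lower in AL 50 h (log2 -1.31 ± 0.24, adjusted p = 6.2e-05). Cyt-c-p, the cytochrome c gene, was lower with a log2 fold change of -0.60 ± 0.14 (232 CPM in AL 50 h and 352 CPM in MB 84 h). Leaving out single libraries gave 4 to 6 lower genes, with 4 without MB 84 h replicate 1, and ND75 lost its call without AL 50 h replicate 2 (-0.84 became -0.69).

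Of 51 cell cycle genes 19 were lower in AL 50 h, 2 were higher and 30 were not called (7.98% of all genes were higher and 4.76% lower), with a median of -0.39. CycA, a mitotic cyclin gene, had 788, 789 and 910.0 CPM in AL 50 h and 1247, 1461 and 1205 CPM in MB 84 h. CycA was 1.57-fold lower in AL 50 h (log2 -0.65 ± 0.11, adjusted p = 1.8e-05). Orc1, a gene of the origin recognition complex, had 175, 188 and 143 CPM in AL 50 h and 403, 261 and 337 CPM in MB 84 h. Orc1 was 1.98-fold lower in AL 50 h (log2 -0.99 ± 0.17, adjusted p = 3.9e-05). fzy, an activator gene of the anaphase-promoting complex, was lower with a log2 fold change of -0.75 ± 0.14 (225 CPM in AL 50 h and 377 CPM in MB 84 h). For CycA, Orc1 and fzy the libraries of the 2 groups did not overlap. CycE, the cyclin gene of entry into DNA replication, went the other way at 1067, 1140.3 and 1274 CPM in AL 50 h and 588, 431 and 607 CPM in MB 84 h. CycE was 2.14-fold higher in AL 50 h (log2 1.10 ± 0.14, adjusted p = 2.4e-07), a call lost under spike-in scaling (0.70, adjusted p = 0.11). The mitotic phosphatase gene stg and the replication clamp gene mus209 were not called, with log2 intervals of -0.14 to 0.46 and -0.10 to 0.42, though mus209 was called higher with the span trend removed (0.41, adjusted p = 0.017). Leaving out single libraries gave 12 to 17 lower genes, the lowest count without AL 50 h replicate 1, and spike-in scaling gave 15 lower and none higher.

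RNA-binding protein genes other than Imp and Syp were called higher at 17 of 39 members (7.98% of all genes were) and lower at 1, with a median of 0.42. msi, the musashi gene, had 1863, 1756 and 1620.4 CPM in AL 50 h and 637, 379.9 and 623 CPM in MB 84 h. msi was 3.20-fold higher in AL 50 h (log2 1.68 ± 0.14, adjusted p = 1e-11). ps, a splicing regulator gene of the Nova class, had 586, 515 and 520.4 CPM in AL 50 h and 219, 176 and 205 CPM in MB 84 h. ps was 2.70-fold higher in AL 50 h (log2 1.43 ± 0.14, adjusted p = 2.2e-10). mei-P26, a TRIM-NHL gene, and stau, whose protein carries RNA in dividing neuroblasts, were higher by 0.83 ± 0.12 and 0.84 ± 0.12, and the translational repressor gene pum by 0.91 ± 0.18. No library of either group fell within the range of the other for msi, ps, mei-P26 and stau. Under spike-in scaling 3 were higher and 2 lower, and the median was 0.0047, against -0.44 over all genes. There mei-P26, stau and pum lost their calls (0.43, 0.45 and 0.51). With the span trend removed 12 were higher and 3 lower with a median of 0.10, and pum stood at 0.01.

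The largest differences in level among called genes were in 8 transcripts. CR43283, a long noncoding RNA gene also known as cherub (chromosome 3R, 7073825 to 7081845 in dm3), had 249125, 224231 and 218533 CPM in AL 50 h and 74161, 51486 and 66191 CPM in MB 84 h. CR43283 was 3.61-fold higher in AL 50 h (log2 1.85 ± 0.17, adjusted p = 4.7e-07). It took 18.8 to 20.7% of gene counts in AL 50 h and 6.14 to 7.40% in MB 84 h, and its mean in MB was 43412 to 73939.8 CPM over all ages. In AL its mean was 106359 ± 27423 CPM at 24 h, 194306 ± 13196 CPM at 36 h, 230629.8 ± 16269 CPM at 50 h and 79647 ± 10585 CPM at 84 h, the highest being at 50 h. CR41602, a ribosomal RNA gene with near-identical copies whose count is therefore uncertain, was lower with a log2 fold change of -0.76 ± 0.17 (adjusted p = 0.0051). Msp-300, which encodes a nesprin that anchors nuclei, had 969, 908 and 927 CPM in AL 50 h and 5178, 3666 and 4905 CPM in MB 84 h. Msp-300 was 4.90-fold lower in AL 50 h (log2 -2.29 ± 0.28, adjusted p = 1.4e-05). hdc, the headcase gene, had 4015, 3402 and 3433 CPM in AL 50 h and 922, 619 and 1004 CPM in MB 84 h. hdc was 4.26-fold higher in AL 50 h (log2 2.09 ± 0.26, adjusted p = 1.4e-05). CG9821 had 4319 CPM in AL 50 h and 1599 CPM in MB 84 h (log2 1.43 ± 0.13) and CG43444 3538 CPM in AL 50 h and 946 CPM in MB 84 h (log2 1.90 ± 0.14). CG43444, which spans 93.0 kb, stood at 1.00 with the span trend removed. The ranges of the 3 libraries of each group did not overlap for CR43283, Msp-300, hdc, CG9821 and CG43444. Df31, a chromatin decondensation gene, and roX1, a noncoding RNA gene of dosage compensation, were higher by 0.53 ± 0.09 and 0.76 ± 0.10, calls lost under spike-in scaling (0.12 and 0.36).

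Of 43 adhesion and guidance receptor genes 10 were higher and 1 was lower (7.98% of all genes were higher and 4.76% lower), with a median of 0.26. The list has a median span of 35.1 kb, against 2.47 kb over all genes tested. With the span trend removed 7 were higher, 5 were lower and the median was -0.20. Under spike-in scaling it was -0.18, and that of all genes was -0.44. Ten-a, a teneurin gene used in olfactory wiring, had 91.6, 117 and 118 CPM in AL 50 h and 13.3, 14.2 and 8.65 CPM in MB 84 h. Ten-a was 9.02-fold higher in AL 50 h (log2 3.17 ± 0.32, adjusted p = 3e-08), or 2.22 with the trend removed. The netrin receptor genes were higher, unc-5 at 189 CPM in AL 50 h and 42.4 CPM in MB 84 h (log2 2.16 ± 0.22) and fra at 306 CPM in AL 50 h and 136 CPM in MB 84 h (log2 1.17 ± 0.15). The semaphorin gene Sema-1a had 348 CPM in AL 50 h and 113 CPM in MB 84 h (log2 1.62 ± 0.16). With the trend removed the values of unc-5, fra and Sema-1a were 1.66, 0.51 and 0.64, and fra was not called under spike-in scaling (0.78). Of 17 neuron markers 4 were higher, unc-13, cac, cpx and futsch, and none was lower (7.98% of all genes were higher and 4.76% lower), with a median of 0.70 and a median span of 19.2 kb. The median was 0.44 and 0.20 without AL 50 h replicate 1 or 2, 0.27 under spike-in scaling and 0.40 with the span trend removed. cpx, the complexin gene, had 18.8, 20.5 and 36.3 CPM in AL 50 h and 6.98, 7.54 and 5.83 CPM in MB 84 h. cpx was 3.71-fold higher in AL 50 h (log2 1.89 ± 0.39, adjusted p = 0.0005), with no overlap, and was not called by limma on TPM (1.23). With the span trend removed 2 neuron markers were called and under spike-in scaling 1, and cac and futsch were not called under either (0.58 and 0.86 with the trend removed). The part of neurons or ganglion mother cells carried through the sort was not tested for the genes called higher in AL 50 h.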

How the data were processed

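The deposited table holds whole-number read counts per gene and, per gene, TPM values, as the authors deposited them, for 24 libraries. Per the labels' protocols, RNA of about 100 sorted cells was amplified (NuGEN Ovation V2), made into libraries (Encore) and carried ERCC spike-in RNA. Per the submitters' processing notes, HTSeq 0.6.1p1, STAR 2.4.0i, Bowtie2 2.1.0, CASAVA and cutadapt 1.7.1 were used, and the builds dm3 and mm10 are named. The strand setting of counting is not given in the sources used here.

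Of 15437 rows, 15339 were genes; 92 spike-ins, 5 HTSeq summary rows and 1 blank row (at most 0.000206% of counts) were left out of library sizes. Reads outside genes were 10.3 to 11.6% in AL 50 h and 9.34 to 10.4% in MB 84 h. Counts were fitted with edgeR 4.0.16 (R 4.3.3): all 24 libraries, 1 mean per group, TMM scaling, filterByExpr, robust quasi-likelihood test, Benjamini-Hochberg adjustment over 10324 genes and a threshold of 0.05. Fold changes are AL 50 h over MB 84 h with standard errors, and the biological coefficient of variation was 0.471. Alternatives were DESeq2 1.42.0 size factors and Wald test, no filter, a replicate block, scaling by spike-in counts and cell number, thinning, limma 3.58.1 on log2(TPM + 1), the 6 libraries alone, leaving out each library and, added after seeing the data, removal of a trend on gene span. On simulated data with 9954 genes, 53.0% of genes changed 2-fold and 91.0% of those changed 4-fold were recovered, with 4 false calls. The changed genes all had a mean of at least 10 CPM. Since no span trend or scaling shift was simulated between the groups, these figures do not cover such shifts.

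The rule names the 12 highest and 12 lowest fold changes among called genes at a mean of 10 CPM or more. For these the libraries of the 2 groups also had to lie apart. It adds the largest differences in CPM, the smallest differences and the temporal factors. From the lists it takes leading members by adjusted p, and some of these, such as the Hox genes Antp and lab, did not pass the test. The groups, lists and members were chosen with earlier results of these data known.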

Additional observations from a re-analysis of the deposited data

How the results depend on the processing

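Of 149 genes named by rule, 106 were called and 58 of these were called under every setting; 15 lost the call with at least 1 library left out and 42 under another setting, and 12 others gained one. Scaling by spike-in counts and cell number gave 754 genes called, 165 of them higher, and 4089 in AL 24 h over MB 24 h. With log2(TPM + 1) and limma 522 genes were higher and 806 lower, which moved the median of all genes to -0.16. With 1 library left out, 871 to 1111 genes were called, 591 to 724 higher and 270 to 387 lower, and without AL 50 h replicate 1 the counts were 871 and 270 lower. In the same fits AL 24 h over MB 24 h gave 1100 to 1139 genes and AL 84 h over AL 24 h 1252 to 1290, while 252 to 307 of the genes called between AL 50 h and MB 84 h were called in the same direction in the first and 306 to 387 in either direction in the second. In TPM the Imp to Syp ratio of MB 84 h was 0.597. With the span trend removed hyd was lower by -0.36 (log2, adjusted p = 0.0084). The cause of these shifts was not tested. A replicate block gave 1313 genes, 824 higher and 489 lower, 1271 of them shared. Deviations of equally numbered libraries correlated at -0.0215, -0.0691 and -0.0514 over 5336 genes, and those of unequally numbered ones at -0.0470 to 0.0946. No pairing by number was seen in these values, and whether equal numbers shared a batch was not tested. Depth limits genes near the floors of 0.390 to 0.616 CPM, and 6642 genes were neither called nor held to within 2-fold.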

Other observations

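Of all genes tested 12.7% were called between AL 50 h and MB 84 h, 7.98% higher and 4.76% lower, the shares against which the counts below stand. Of 89 ribosomal protein genes 7 were higher in AL 50 h and 6 lower, 14.6% in all, with a median log2 fold change of -0.05. RpS3, a gene of the small subunit, was higher (3071 CPM in AL 50 h and 2053 CPM in MB 84 h) and RpL3, of the large subunit, lower (769.7 CPM in AL 50 h and 1004 CPM in MB 84 h). The lower count was 0 without AL 50 h replicate 1, 3 without AL 50 h replicate 2, 2 and 3 without MB 84 h replicates 1 and 2, and 15 without AL 50 h replicate 3. The higher count was 3 without AL 50 h replicate 3 and 4 without MB 84 h replicate 3, and with the span trend removed 26 were higher and none lower, against none higher and 4 lower under spike-in scaling. Of 22 ribosome biogenesis genes dm was higher and the RNA polymerase I subunit gene RpI1 lower (135 CPM in AL 50 h and 191 CPM in MB 84 h), a call lost without AL 50 h replicate 1 or 2 or MB 84 h replicate 2. Of 28 chromatin regulator genes 6 were higher and 1 lower (25.0%), with a median of 0.08. Scaled by spike-in RNA and cell number, the list had none higher and 1 lower and a median of -0.32, and with the span trend removed 1 higher and 3 lower and a median of -0.05. All genes had medians of -0.44 and -0.03 in these settings. The Polycomb group gene Pcl (265 CPM in AL 50 h and 111 CPM in MB 84 h) and the remodeller gene kis (4379.9 CPM in AL 50 h and 3131 CPM in MB 84 h) were higher by 1.26 ± 0.16 and 0.48 ± 0.09, and 3 were higher without AL 50 h replicate 1 or MB 84 h replicate 2. Pcl and kis lost their calls under spike-in scaling (0.85 and 0.08, adjusted p = 0.063 and 0.91), and kis with the span trend removed (0.11, adjusted p = 0.45). Of 13 cell death genes 2 were higher and 3 lower (38.5%), the death ligand gene egr (42.4 CPM in AL 50 h and 13.002 CPM in MB 84 h) and the caspase inhibitor gene th (173 CPM in AL 50 h and 112 CPM in MB 84 h) higher and W, skl and Iap2 lower, and 1 was lower without AL 50 h replicate 1. th lost its call under spike-in scaling (0.22, adjusted p = 0.7), with limma on TPM (adjusted p = 0.077) and without AL 50 h replicate 2 or MB 84 h replicate 2 (adjusted p = 0.055 and 0.082). Iap2 lost its call without AL 50 h replicate 1, AL 50 h replicate 2 or MB 84 h replicate 2 (adjusted p = 0.070, 0.051 and 0.081). Of 12 dosage compensation and sex genes 3 were higher and 1 lower (33.3%), fru, which encodes a zinc finger factor of sexual behaviour, being higher by 1.13 ± 0.13 (729 CPM in AL 50 h and 333 CPM in MB 84 h). Under spike-in scaling none was higher and 2 were lower, and fru was not called (0.74, adjusted p = 0.1).

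Of 8 Sox genes D and SoxN were called higher, and of 4 tested Hox genes none was called (median -0.26). Of 17 heat shock and dissociation response genes the cochaperone gene stv was higher (41.3 CPM in AL 50 h and 16.5 CPM in MB 84 h), a call absent without AL 50 h replicate 2 or MB 84 h replicate 3, and without a filter on low counts 4 were higher and 1 lower. Of 11 ganglion mother cell and newborn neuron markers pros, fne and jumu were higher and nerfin-1 lower. Of 12 glia markers nrv2 and loco were higher, loco (64.8 CPM in AL 50 h and 40.3 CPM in MB 84 h) losing its call with any of the 6 libraries left out. Of 6 haemocyte markers nimC1 was lower, at 0 in AL 50 h, a call lost without any of its 3 libraries, and of 5 fat body markers none was called. Of 11 tracheal and cuticle genes verm and Cpr76Bc were lower. Of 7 muscle markers Act57B was lower and sls, the titin gene, was higher at 114, 141 and 118 CPM in AL 50 h and 20.1, 6.46 and 12.2 CPM in MB 84 h (3.27 ± 0.84, adjusted p = 0.015), a call lost without MB 84 h replicate 2 or 3. Under spike-in scaling none of the ganglion mother cell, glia, heat shock or muscle genes was called higher. sls averaged 35.8 ± 7.66 CPM in AL at 36 h and 27.3 ± 22.7 CPM at 84 h, and 46.8 ± 26.5 CPM in MB at 24 h.

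Calls by dm3 chromosome were 16 higher and 5 lower of 84 genes tested on chromosome 4 (25.0% called), against 169 higher and 52 lower of 1683 on X (13.1%) and 171 higher and 104 lower of 2526 on 3R (10.9%).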
